A study of Homo sapiens with 6 samples.

Results

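The 10 genes described here are members of the BCL2 family, chosen by symbol: the prosurvival genes BCL2, BCL2L1, MCL1 and BCL2A1, the effector genes BAX and BAK1, and the BH3-only genes BID, BCL2L11, BBC3 and PMAIP1. All 10 were found among the 23858 genes of the expression table, and all 10 were among the 16803 genes tested. They were followed in NB4 cells after 6 h with arsenic trioxide (3 libraries) and in control NB4 cells (3 libraries). NB4 cells come from a human acute promyelocytic leukaemia with the PML-RARA fusion gene, a disease that is treated with arsenic trioxide. The series title ties the treatment to rapid loss of the fusion protein. The dose, and what the control cells received, are not given in the sources used here. Both groups are the same line, so the fusion is in all 6 libraries. Nothing says whether the replicates came from separate cultures, so the p-values describe the spread between these libraries alone, which may be technical.

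Proteins of this family decide whether the outer membrane of the mitochondrion stays intact. Prosurvival members hold the effectors BAX and BAK1 in check, BH3-only members bind the prosurvival proteins or activate the effectors, and active effectors open pores through which cytochrome c leaves and caspases are activated. Myeloid cells are known to depend strongly on MCL1, a protein with a short life, and BCL2 is the target of the leukaemia drug venetoclax. Only RNA was measured here, at the level of whole genes, so splice forms with opposing roles, as MCL1 and BCL2L1 have, were not told apart.

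Expression was given as RPKM, a read count divided by the length of the exons and by the counted reads of the library, so that levels of different genes can be set side by side. The libraries held 19361333 to 22609019 reads, and the members drew 48 to 6274 reads in a library. Across the tested genes, Pearson's r of log2(RPKM + 1) was 0.965 to 0.973 for libraries of the same group and 0.919 to 0.935 for libraries of different groups, where genes are no independent replicates. The groups separated on the first principal component (55.3% of the variance). On the second (15.2%), arsenic trioxide replicate 3 (-23.0) and control replicate 1 (-21.3) stood apart from the other 4 libraries (6.85 to 14.8). In each of the 10 genes, arsenic trioxide replicate 3 was the highest (6 genes) or lowest (4 genes) of its group, and so was control replicate 1. Over all tested genes the same held for 72.7% and 72.2% of genes. Values without both libraries are therefore given beside the calls of the 10 genes. Of the 9 promyelocyte markers examined, 7 were listed, led by MPO, the granule enzyme myeloperoxidase, at 677 ± 123 RPKM in arsenic trioxide and 940 ± 132 RPKM in control cells (SD, n = 3 each). The summed level of the 7 was 746 to 1060 RPKM after arsenic trioxide and 1084 to 1432 RPKM in control cells. AZU1, a granule protein, fell (log2 fold change -0.98, limma-trend adjusted p = 0.00258), as did MS4A3 (-0.68, adjusted p = 0.0215), and PRAM1 rose (0.54, adjusted p = 0.0466), while MPO and 3 others were not called. MS4A3 lost its call without arsenic trioxide replicate 2 (0.0550) or control replicate 2 (0.0617) or 3 (0.0664). PRAM1 lost it without arsenic trioxide replicate 2 (0.0862) or 3 (0.0873) or control replicate 1 (0.0744), 2 (0.127) or 3 (0.0836). ELANE and KIT were not analysed here. Of the markers of other cell types, 4 of 7 were listed for T and NK cells, 4 of 6 for B cells, 2 of 6 for erythroid cells and 2 of 7 for epithelial and stromal cells. The summed levels were 18.5 to 23.2 against 22.1 to 25.7 RPKM for T and NK cells and 7.21 to 7.96 against 5.85 to 6.00 RPKM for B cells, arsenic trioxide against control. Most of the T and NK sum came from NKG7, at 16.4 ± 3.34 RPKM after arsenic trioxide and 19.7 ± 2.03 RPKM in control cells. Among the B cell genes CD79B fell (log2 fold change -0.63, limma-trend adjusted p = 0.0156, but 0.0536 without arsenic trioxide replicate 1 and 0.0570 without control replicate 3), CD22 was listed at 0 in control replicate 1, and HBB, HBA1 and HBA2 were not analysed here. The erythroid genes summed to 1.06 to 1.76 against 0.814 to 1.19 RPKM, and the epithelial and stromal genes to 8.79 to 11.5 against 8.39 to 10.8 RPKM. Their part in the results below was not tested.

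After 6 h of arsenic trioxide, 6 of the 10 genes were called as changed. Of these, BAX lost its call in 11 and BCL2L11 in 6 of 15 alternative settings given at the end. The BH3-only genes PMAIP1 and BBC3 rose to 3.94 and 3.58 times their control level in mean RPKM, the prosurvival gene MCL1 to 1.32 times and the effector BAX to 1.24 times. BCL2 fell to 0.450 of its control level, and BCL2L11, a BH3-only gene, to 0.659. BCL2L1, BCL2A1, BAK1 and BID were not called. A gene was called when limma-trend on log2(RPKM + 1) gave a Benjamini-Hochberg adjusted p under 0.05 over all tested genes. The same rule called 25.4% of all tested genes, 12% as higher and 13.4% as lower, beside 4 members called higher and 2 called lower. In 7 of the 10 genes, 5 higher and 2 lower, the libraries of the groups did not overlap, which was so for 44.6% of all tested genes (21.9% higher, 22.6% lower). Called changes of at least 2-fold on the fitted scale were found for 2 members, both higher, and for 3.59% of tested genes (2.04% higher, 1.55% lower). BCL2 stayed short of that fold on the fitted scale and passed it in mean RPKM. The median log2 fold change of the members was 0.21, against -0.0033 for all tested genes, and the median size without sign was 0.41, against 0.25.

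**Figure D1:**
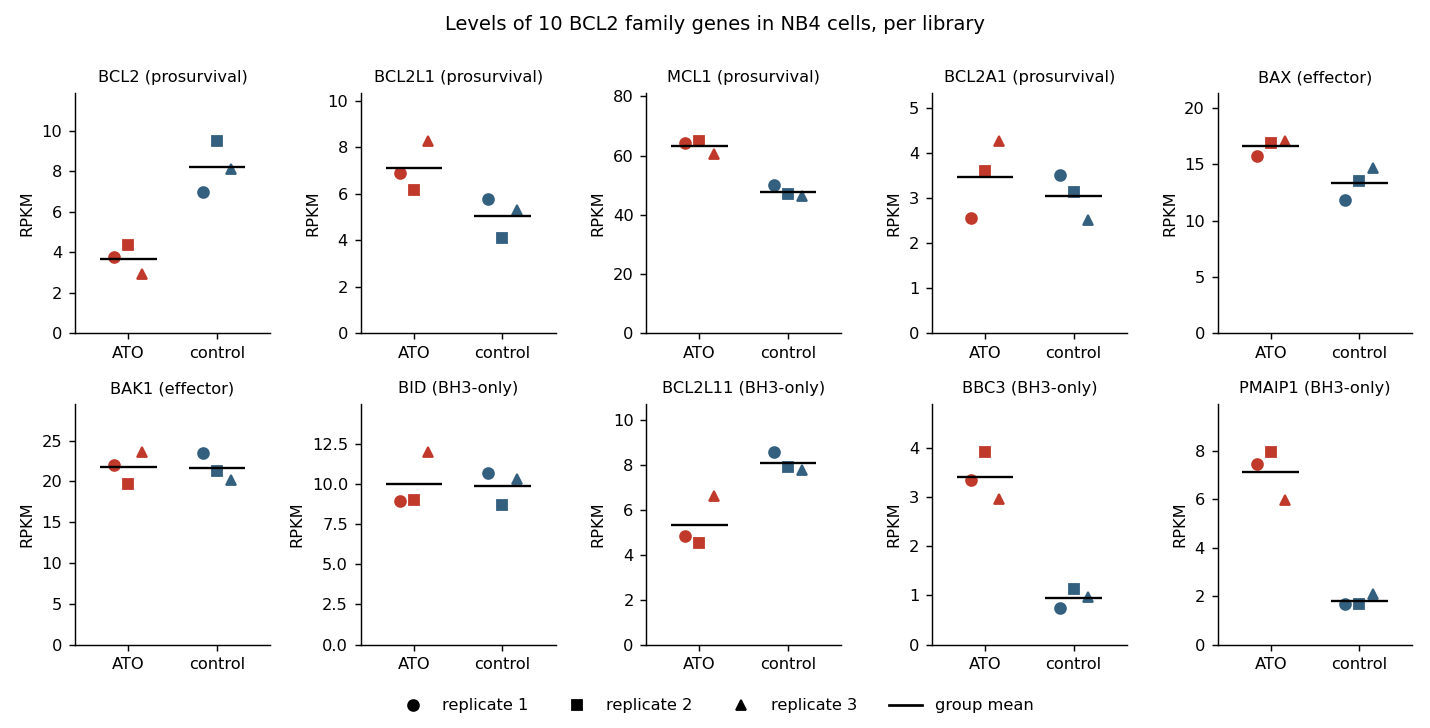
RPKM of each of the 10 genes in every library, arsenic trioxide (ATO) left and control right in each panel, with a marker shape for each replicate number and a line at the group mean (n = 3 each). PMAIP1 and BBC3 stood higher and BCL2 lower after arsenic trioxide with no overlap, while the BAK1 and BID libraries of the groups were interleaved.

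**Figure D2:**
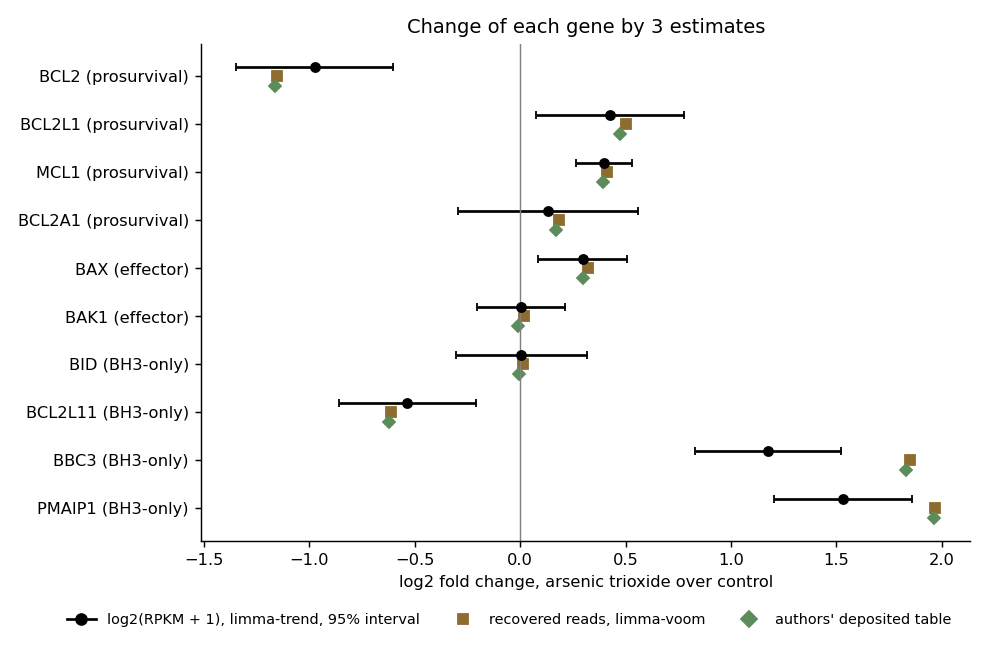
Log2 fold change, arsenic trioxide over control, of the 10 genes grouped by role, from limma-trend on log2(RPKM + 1) with its 95% interval (circle and bar), from limma-voom on recovered reads (square) and from the authors' deposited table (diamond). PMAIP1 (1.53 by limma-trend) and BBC3 (1.17) lie farthest to the right, with larger values by the estimates that add no RPKM, BCL2 (-0.97) lies farthest to the left, and the limma-trend intervals of BCL2A1, BAK1 and BID include 0.

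Among the prosurvival genes, BCL2 (chromosome 18, 63123346 to 63320128, minus strand, GRCh38), the founding inhibitor of mitochondrial apoptosis, measured 3.78, 4.36 and 2.92 RPKM in arsenic trioxide replicates 1, 2 and 3, against 6.96, 9.49 and 8.12 RPKM in control replicates 1, 2 and 3. The values of other genes are given in the same order of replicates. All arsenic trioxide libraries lay well below all control libraries, with arsenic trioxide replicate 3 the lowest. BCL2 averaged 3.68 ± 0.725 RPKM after arsenic trioxide and 8.19 ± 1.27 RPKM in control cells, a ratio of 0.450. The fitted log2 fold change was -0.97 ± 0.16 (SE, 95% interval -1.35 to -0.60, limma-trend adjusted p = 0.00600), and -0.95 without control replicate 1 and arsenic trioxide replicate 3 (adjusted p = 0.0185). In bulk RNA, fewer cells that hold a transcript and less of it per cell cannot be told apart.

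The introns of BCL2 hold genes, named as in GENCODE, that also fell. AC022726.2, an antisense transcript with no exon base in common with BCL2, had 1.63 ± 0.461 RPKM after arsenic trioxide and 5.11 ± 0.722 RPKM in control cells (log2 fold change -1.23, adjusted p = 0.00329), from 16, 25 and 17 reads against 52, 63 and 58. AC022726.1, annotated on the strand of BCL2 and inside an intron, was at 0.602 ± 0.664 and 3.26 ± 1.21 RPKM (-1.44, adjusted p = 0.0207), from 1 to 6 and 8 to 17 reads. The call of AC022726.1 was lost without arsenic trioxide replicate 1 (0.0662) or 3 (0.0602) and without control replicate 2 (0.0644) or 3 (0.0630). The library kit does not mark strand, so reads of these genes and reads from the introns of BCL2 cannot be told apart. These genes were chosen by their place within BCL2 and not by a list.

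MCL1 (chromosome 1, 150574551 to 150579738, minus strand), which holds BAK1 and the BH3-only proteins and is rapidly turned over, had the highest level of the 10 genes in every library. Its level was 64.4, 64.9 and 60.7 RPKM after arsenic trioxide, against 50.2, 47.0 and 46.3 RPKM in control cells. The groups did not overlap, and the libraries within a group lay close together. MCL1 averaged 63.3 ± 2.32 RPKM after arsenic trioxide and 47.8 ± 2.09 RPKM in control cells, 1.32 times as high. The log2 fold change was 0.40 ± 0.06 (95% interval 0.26 to 0.53, adjusted p = 0.00393), and 0.46 without the pair of libraries that stood apart (adjusted p = 0.0133).

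BCL2L1 (chromosome 20, 31664452 to 31723989, minus strand) encodes BCL-XL, which holds BAX and BAK1 in check. Its libraries were at 6.87, 6.18 and 8.27 RPKM after arsenic trioxide, against 5.77, 4.08 and 5.30 RPKM in control cells. The groups did not overlap, although arsenic trioxide replicate 2 and control replicate 1 were close. The means were 7.11 ± 1.06 and 5.05 ± 0.869 RPKM, and the log2 fold change of 0.42 ± 0.15 (95% interval 0.07 to 0.78) did not pass after adjustment over all genes (adjusted p = 0.0769). It did pass with limma-voom on the reads recovered from the RPKM values (0.50, adjusted p = 0.0246). On the other strand, the long noncoding gene ABALON covers 1424 of the 3314 exon bases of BCL2L1, with 24 to 51 reads in a library, and the assignment of reads in the shared bases is uncertain.

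BCL2A1 (chromosome 15, 79960889 to 79971446, minus strand), an NF-kB target that protects myeloid cells, was the lowest prosurvival gene in control cells. It measured 2.55, 3.60 and 4.26 RPKM after arsenic trioxide, against 3.50, 3.13 and 2.52 RPKM in control cells. The groups overlapped, and each library held at most 102 reads of this gene. Its log2 fold change was 0.13 ± 0.18 (95% interval -0.29 to 0.56, adjusted p = 0.629). The fitted change of MCL1, 0.40, lies inside that interval.

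Of the effector genes, BAX (chromosome 19, 48954815 to 48961798, plus strand), whose protein moves from the cytosol to the mitochondrion when active, was at 15.8, 16.9 and 17.0 RPKM after arsenic trioxide, against 11.8, 13.5 and 14.7 RPKM in control cells. Every arsenic trioxide library lay above every control library, by a narrow margin over control replicate 3. The means were 16.6 ± 0.709 RPKM after arsenic trioxide and 13.3 ± 1.44 RPKM in control cells, 1.24 times as high. The log2 fold change was 0.30 ± 0.09 (95% interval 0.09 to 0.51, adjusted p = 0.0495). This call lay at the threshold. It was lost without arsenic trioxide replicate 1 (adjusted p = 0.0797), 2 (0.122) or 3 (0.115), without control replicate 1 (0.103) or 2 (0.102) and without the pair that stood apart (0.20, adjusted p = 0.166), and it was kept without control replicate 3 (0.0462).

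BAK1 (chromosome 6, 33572547 to 33580293, minus strand), the effector that sits in the outer membrane at rest, had 22.0, 19.7 and 23.6 RPKM after arsenic trioxide, against 23.5, 21.3 and 20.2 RPKM in control cells. The ranges of the groups lay almost on top of each other. The log2 fold change was 0.01 ± 0.09 (95% interval -0.20 to 0.21, adjusted p = 0.972), and its sign turned with the scaling and with the libraries used. BAX over BAK1 was 0.766 ± 0.0816 after arsenic trioxide and 0.622 ± 0.113 in control cells, with overlap between the groups.

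PMAIP1 and BBC3 are BH3-only genes known to be induced by cellular stress, PMAIP1 by ATF4 among others. PMAIP1 (chromosome 18, 59899948 to 59904306, plus strand) encodes NOXA, which binds MCL1 above all and hastens its destruction. It measured 7.46, 7.94 and 5.99 RPKM after arsenic trioxide, against 1.66, 1.66 and 2.10 RPKM in control cells. Every arsenic trioxide library was far above every control library, with arsenic trioxide replicate 3 the lowest of its group. PMAIP1 averaged 7.13 ± 1.02 RPKM after arsenic trioxide and 1.81 ± 0.251 RPKM in control cells, 3.94 times as high. The log2 fold change, which understates the change of low genes on this scale, was 1.53 ± 0.14 (95% interval 1.20 to 1.86, adjusted p = 0.000897), and 1.60 without the pair that stood apart (adjusted p = 0.00981). By size of the fitted change PMAIP1 ranked 156 among the 16803 tested genes.

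BBC3 (chromosome 19, 47220822 to 47232766, minus strand) encodes PUMA, which binds all the prosurvival proteins. It had 3.34, 3.90 and 2.95 RPKM after arsenic trioxide, against 0.747, 1.14 and 0.960 RPKM in control cells. The groups were far apart, from 206 to 263 reads in arsenic trioxide libraries and 48 to 70 reads in control libraries. The means were 3.40 ± 0.480 and 0.948 ± 0.195 RPKM, a ratio of 3.58. BBC3 had a log2 fold change of 1.17 ± 0.15 (95% interval 0.83 to 1.52, adjusted p = 0.00257, rank 426), and the same 1.17 without the pair that stood apart (adjusted p = 0.0179). It was the 1 member whose control mean lay below the filter of 1 RPKM, which it passed through its level after arsenic trioxide, and with no filter its adjusted p was 0.00422.

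BCL2L11 (chromosome 2, 111119378 to 111168447, plus strand) encodes BIM, a strong activator of BAX and BAK1 and a target of FOXO3. Its libraries were at 4.84, 4.52 and 6.62 RPKM after arsenic trioxide, against 8.57, 7.89 and 7.79 RPKM in control cells. The groups did not overlap, and arsenic trioxide replicate 3 lay nearest to the control libraries. The means were 5.32 ± 1.14 RPKM after arsenic trioxide and 8.08 ± 0.421 RPKM in control cells, a ratio of 0.659. The log2 fold change was -0.54 ± 0.14 (95% interval -0.86 to -0.21, adjusted p = 0.0295). The call was lost without arsenic trioxide replicate 1 (adjusted p = 0.0876) or 2 (0.0809) and without control replicate 1 (0.0836), 2 (0.0719) or 3 (0.0699). It was kept without arsenic trioxide replicate 3 (-0.68, adjusted p = 0.00898) and without the pair that stood apart (-0.64, adjusted p = 0.0246). On the other strand, the long noncoding gene MIR4435-2HG shares 727 of the 6658 exon bases of BCL2L11 and rose, to 7.16 ± 0.884 RPKM after arsenic trioxide, against 4.44 ± 0.164 RPKM in control cells (log2 fold change 0.58, adjusted p = 0.0108, but 0.0614 without the pair that stood apart). The assignment of reads in the shared bases is uncertain.

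BID (chromosome 22, 17734138 to 17774770, minus strand), which links death receptors to the mitochondrion once caspase-8 has cut it, was at 8.96, 9.02 and 12.0 RPKM after arsenic trioxide, against 10.7, 8.70 and 10.3 RPKM in control cells. The groups overlapped, with arsenic trioxide replicate 3 the highest of all 6 libraries. The log2 fold change was 0.01 ± 0.13 (95% interval -0.30 to 0.32, adjusted p = 0.979), and its sign turned with the scaling and with the libraries used.

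The order of the levels differed between the groups in its lower part. After arsenic trioxide it ran MCL1, BAK1, BAX and BID with no overlap between neighbours, then PMAIP1, BCL2L1 and BCL2L11, whose neighbours overlapped, and then BCL2, BCL2A1 and BBC3, whose neighbours overlapped as well. In control cells MCL1, BAK1 and BAX again led without overlap, followed by BID, BCL2 and BCL2L11, whose neighbours overlapped, and then by BCL2L1, BCL2A1, PMAIP1 and BBC3, each apart from the next. PMAIP1 thus stood at rank 5 after arsenic trioxide and at rank 9 in control cells, and BCL2 at rank 8 and at rank 5.

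Sums by role carry these shifts, and are given without a test because their members were tested above. The 4 prosurvival genes summed to 77.6 ± 1.48 RPKM after arsenic trioxide and 64.1 ± 2.14 RPKM in control cells, the effectors to 38.3 ± 2.08 and 35.0 ± 0.256 RPKM, and the BH3-only genes to 25.8 ± 1.51 and 20.7 ± 1.18 RPKM. None of the 3 sums overlapped between the groups. MCL1 made up 81.6 ± 1.70% of the prosurvival sum after arsenic trioxide and 74.6 ± 0.914% in control cells, while BCL2 made up 4.74 ± 0.847% and 12.8 ± 2.22%. BBC3 and PMAIP1 together held 41.0 ± 7.53% of the BH3-only sum after arsenic trioxide and 13.3 ± 1.91% in control cells, and BCL2L11 held 20.5 ± 3.22% and 39.0 ± 1.99%. The RPKM of MCL1 over that of its partner PMAIP1 was 8.98 ± 1.03 after arsenic trioxide and 26.8 ± 4.26 in control cells, with no overlap. The ratio of the prosurvival sum to the sum of the other 6 genes was 1.12 to 1.28 after arsenic trioxide and 1.11 to 1.17 in control cells, with overlap. These are ratios of RNA levels per length and not of proteins.

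**Figure D3:**
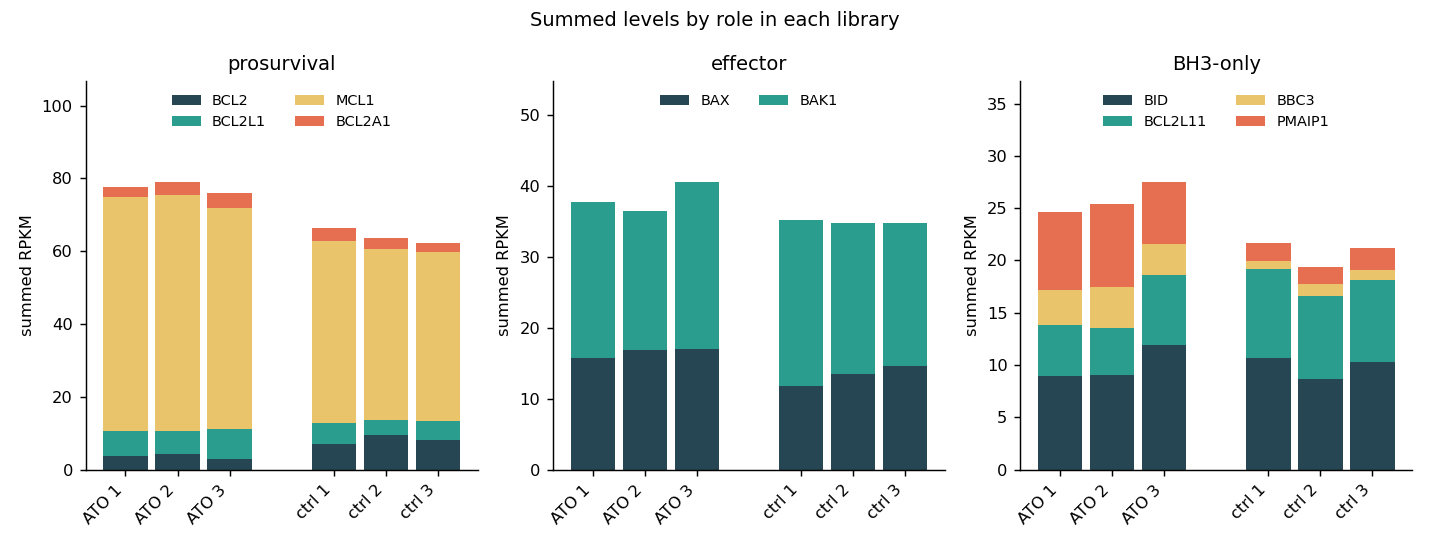
Stacked RPKM of the members of each role in every library, arsenic trioxide (ATO) libraries left and control libraries right in each panel. The BCL2 layer is thinner and the MCL1 layer thicker after arsenic trioxide, and PMAIP1 and BBC3 take 41.0% of the sum of the BH3-only genes shown, against 13.3% in control cells.

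Promoter sequences are shown for PMAIP1, BBC3 and BAX, the members that rose and whose windows hold a motif searched for. RefSeq (GRCh38.p14) had entries for 9 of the 10 genes. MCL1, which also rose, had none and was not searched. The 250 bases before each RefSeq start are printed 5′ to 3′ along the strand of the gene, with motif matches in capitals. Some GENCODE starts lie farther upstream. The last 48 bases of the PMAIP1 window, 99 of the BBC3 window and 60 of the BAX window lie inside those genes in GENCODE. Distances below are to the RefSeq start.

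PMAIP1 promoter, chr18:59899746-59899995 (+ strand): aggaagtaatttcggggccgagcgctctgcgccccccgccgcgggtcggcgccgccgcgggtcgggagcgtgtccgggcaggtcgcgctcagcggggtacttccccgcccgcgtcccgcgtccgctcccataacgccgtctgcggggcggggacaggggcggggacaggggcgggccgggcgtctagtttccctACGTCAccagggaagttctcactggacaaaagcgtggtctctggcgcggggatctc

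BBC3 promoter, chr19:47232668-47232917 (minus strand): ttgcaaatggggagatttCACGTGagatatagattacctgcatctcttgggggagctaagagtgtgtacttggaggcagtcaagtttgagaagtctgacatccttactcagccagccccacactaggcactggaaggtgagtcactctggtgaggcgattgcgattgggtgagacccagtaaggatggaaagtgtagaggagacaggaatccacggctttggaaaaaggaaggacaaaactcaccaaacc

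BAX promoter, chr19:48954625-48954874 (+ strand): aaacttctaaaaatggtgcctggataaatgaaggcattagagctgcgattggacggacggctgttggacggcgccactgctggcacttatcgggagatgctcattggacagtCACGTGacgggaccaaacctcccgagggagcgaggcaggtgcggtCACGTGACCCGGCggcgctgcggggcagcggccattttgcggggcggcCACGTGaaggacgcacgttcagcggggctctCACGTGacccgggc

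The motifs, searched on both strands, were TGATGNAA (C/EBP-ATF), TGACGT (core of the cyclic AMP response element), TGACNNNGC (antioxidant response element), TTCNNGAA (heat shock element) and CACGTG (E-box). They were present in 3.14%, 7.10%, 10.9%, 6.62% and 6.34% of 35116 promoter windows of the same length. PMAIP1 holds that core, read as ACGTCA on the strand shown, 56 bases before the start. BBC3 holds an E-box 232 bases before the start. BAX holds E-boxes at 138, 93, 45 and 14 bases, and an antioxidant response element at 89 bases that overlaps the E-box at 93. The E-boxes at 45 and 14 bases lie inside BAX as annotated in GENCODE. Of the other members, BCL2A1 holds a C/EBP-ATF match at 63 bases. Overlapping windows of BID hold an E-box at the same site, and another BID window holds a heat shock element. The windows of BCL2, BCL2L1, BAK1 and BCL2L11 hold none of these letters. In GENCODE the windows of BCL2, BCL2A1 and BCL2L11 lie wholly inside the genes, as do some windows of BCL2L1 and BID. The matches describe the sequence and are not binding sites or causes.

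Among the other BCL2 family genes, BCL2L13, an outer membrane protein with BCL2 homology, rose. It stood at 11.3 ± 1.09 RPKM after arsenic trioxide and 6.21 ± 1.01 RPKM in control cells (log2 fold change 0.78, adjusted p = 0.00660). Of 13 genes in this list 11 were listed and 7 passed the filter. Of these, 3 rose and 1 fell, with a median log2 fold change of -0.01. By the same rule 12% of all tested genes rose and 13.4% fell. The BH3-only gene BMF rose to 1.56 ± 0.0343 RPKM after arsenic trioxide, against 0.788 ± 0.141 RPKM in control cells (0.52, adjusted p = 0.0266), and BNIP3L, a mitophagy receptor, to 13.6 ± 1.71 against 9.83 ± 1.43 RPKM (0.43, adjusted p = 0.0450). BCL2L12 fell to 8.81 ± 0.866 RPKM, against 11.3 ± 0.586 RPKM (-0.33, adjusted p = 0.0345). The control mean of BMF lay below the filter, which it passed through its level after arsenic trioxide. BMF lost its call without any 1 of the 6 libraries (adjusted p 0.0539 to 0.0791). BNIP3L lost it without arsenic trioxide replicate 1 (0.0550), 2 (0.121) or 3 (0.0881) and without control replicate 1 (0.103) or 3 (0.123). BCL2L12 lost it without arsenic trioxide replicate 2 (0.0949) or 3 (0.0849) and without control replicate 1 (0.0612), 2 (0.0838) or 3 (0.113). Without the pair that stood apart, BCL2L13 kept its call (0.0161), and BMF (0.116), BNIP3L (0.163) and BCL2L12 (0.106) lost theirs. The BH3-only gene BIK, below the filter, had 0.597 ± 0.209 RPKM after arsenic trioxide and 1.19 ± 0.194 RPKM in control cells, with no overlap and no test.

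Of 15 genes of the outer membrane and of MCL1 turnover, all tested, 2 rose and 1 fell, with a median of -0.06. Among all tested genes 12% rose and 13.4% fell. USP9X, a deubiquitinase that stabilises MCL1, had a log2 fold change of 0.28 (adjusted p = 0.0193), HUWE1, a ubiquitin ligase of MCL1, 0.25 (0.0377), and the channel VDAC1 -0.28 (0.0224), at 86.7 ± 4.36 RPKM after arsenic trioxide and 106 ± 6.45 RPKM in control cells. USP9X lost its call without arsenic trioxide replicate 1 (0.0586) or 2 (0.0603). VDAC1 lost it without arsenic trioxide replicate 1 (0.0662) or 3 (0.0604) or control replicate 2 (0.0749) or 3 (0.0653). HUWE1 lost it without arsenic trioxide replicate 1 (0.108) or 2 (0.0870) or control replicate 1 (0.0907), 2 (0.0756) or 3 (0.0621). Without the pair that stood apart, VDAC1 kept its call (0.0443), and USP9X (0.0527) and HUWE1 (0.0640) lost theirs.

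Downstream of the mitochondrion, in the list of the apoptosome, caspases and inhibitors of apoptosis, 17 of 18 genes were tested. Of these, 3 rose and 1 fell, with a median of 0.0014, beside 12% and 13.4% of all tested genes. CASP6, an executioner caspase, had 0.46 (adjusted p = 0.0463) and BIRC6, a large inhibitor of apoptosis, 0.19 (0.0299), and both lost their calls without any 1 library (0.0520 to 0.120 and 0.0568 to 0.0955). DFFB, the nuclease that cuts DNA in apoptosis, had -0.41 (0.0323) and lost its call without arsenic trioxide replicate 1 (0.0913) or 2 (0.0911) or control replicate 1 (0.0854), 2 (0.0730) or 3 (0.0924). Without the pair that stood apart, CASP6 (0.135), BIRC6 (0.0894) and DFFB (0.0720) were not called.

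Of 19 transcription factors known to act on the 10 genes, 18 were tested, 7 rose and 2 fell, with a median of -0.03. Of all tested genes 12% rose and 13.4% fell. CEBPB, a stress and myeloid factor, rose to 8.75 ± 1.28 RPKM after arsenic trioxide, against 2.15 ± 0.0563 RPKM in control cells (1.62, adjusted p = 0.000542), and JUN, an AP-1 subunit, to 7.27 ± 0.473 against 1.92 ± 0.391 RPKM (1.51, adjusted p = 0.000896). MYB, an activator of BCL2, fell to 37.2 ± 3.09 RPKM, against 109 ± 10.6 RPKM in control cells (-1.53, adjusted p = 0.000259), and MYC had a log2 fold change of -1.67 (adjusted p = 0.000368). These 4 held in all 15 alternatives. The other 5 that rose, named after their values were seen, were DDIT3 (2.09), ATF3 (1.52), ATF4 (0.57), FOXO1 (0.56) and FOXO3 (0.36). The control means of ATF3 (0.818 RPKM) and FOXO1 (0.667 RPKM) lay below the filter, which both passed through their levels after arsenic trioxide. ATF4 lost its call without arsenic trioxide replicate 1 (adjusted p = 0.0760), 2 (0.0668) or 3 (0.0612). FOXO1 lost it without arsenic trioxide replicate 1 (0.0914) or control replicate 1 (0.118) or 3 (0.119). With arsenic trioxide replicate 2 or 3 left out, FOXO1 fell below the filter and was not tested. FOXO3 lost it without arsenic trioxide replicate 1 (0.1002), 2 (0.0603) or 3 (0.0604) or control replicate 1 (0.0836) or 3 (0.0871). Without the pair that stood apart, FOXO1 (0.165) and FOXO3 (0.110) were not called.

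**Figure D4:**
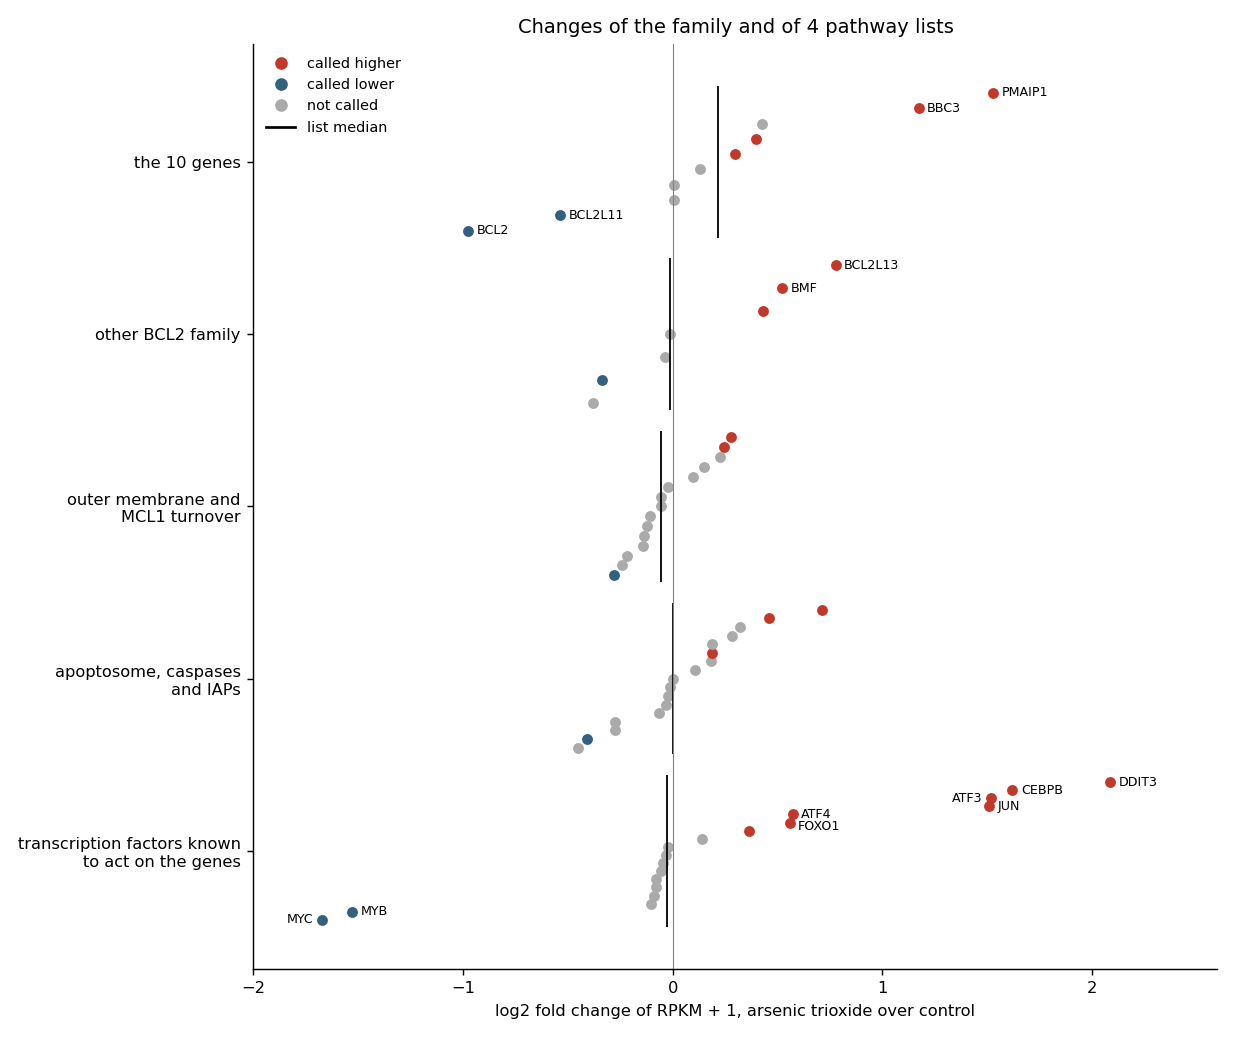
Log2 fold change of RPKM + 1, arsenic trioxide over control, of every tested gene among the 10 and in 4 lists of related genes, with called genes in colour and the list median as a black line. The medians of the 4 lists lie between -0.06 and 0.0014, and PMAIP1 and BBC3 lie farther to the right than any gene of the lists other than the transcription factors.

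In the authors' deposited table, 7 of the 10 genes had an adjusted p under 0.05, as did 25.3% of all genes with an adjusted p there. The deposited table also has BCL2L1 past the threshold, with a log2 fold change of 0.47 (adjusted p = 0.0210). Log2 fold changes in the authors' deposited table were 1.96 for PMAIP1, 1.83 for BBC3, -1.16 for BCL2 and -0.62 for BCL2L11, on a scale with no added RPKM. BAX stood in the authors' deposited table at 0.30, with an adjusted p of 0.0475. Limma-voom on the recovered reads also called 7 members, with 31.2% of all tested genes called.

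**Figure D5:**
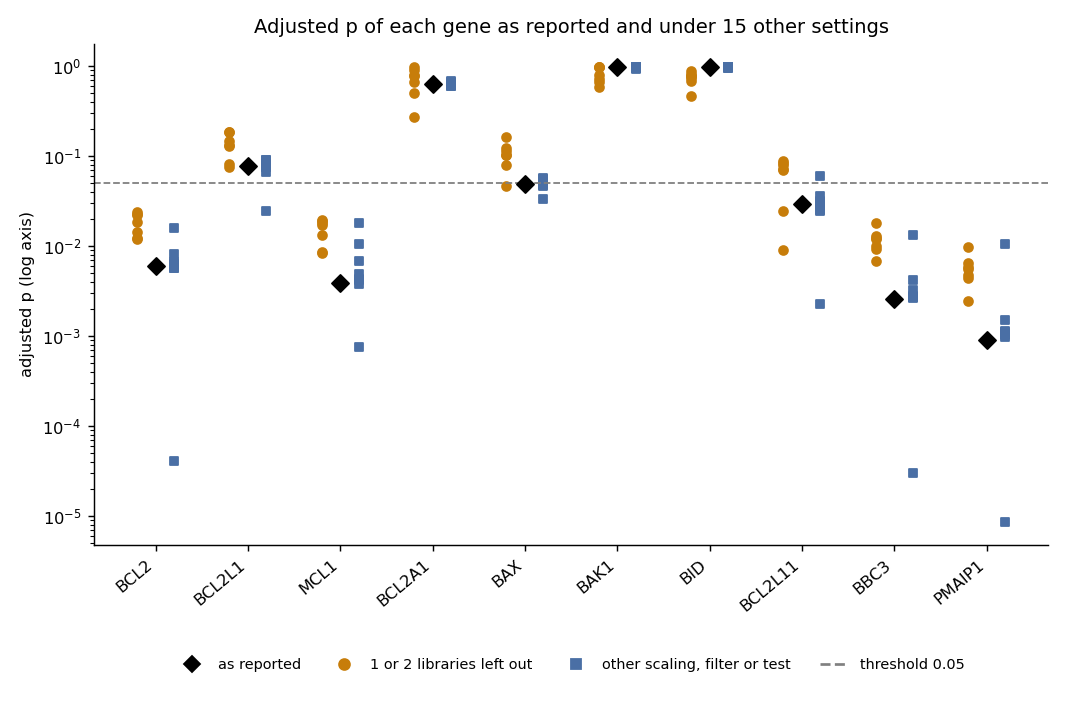
Adjusted p of each gene on a log axis, as reported (diamond), with libraries left out (circles) and under another scaling, filter or test (squares), and the threshold of 0.05 as a dashed line. BCL2, MCL1, BBC3 and PMAIP1 stay below the line in all 15 alternatives, BAX and BCL2L11 lie on both sides of it, BCL2L1 falls below it with limma-voom alone (0.0246), and BCL2A1, BAK1 and BID stay above it.

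The tested genes most like PMAIP1 over the 6 libraries, by Pearson's r of log2(RPKM + 1), were NFAT5 (0.9997), CSNK1G3 (0.998) and SERINC1 (0.998), and 788 genes reached 0.95. For BCL2 they were DUT (0.999), GIGYF1 (0.998) and HIST1H2AB (0.998), and 582 genes reached 0.95. The 6 libraries fall into 2 groups, and these values are given as a description.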

How the data were processed

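Libraries were made from total NB4 RNA after ribosomal RNA had been removed, per the labels' protocols, and the kit named there keeps no strand. HISAT2 2.1.0, HTSeq, DESeq2 and the build hg38 are named in the submitters' processing notes, without parameters. The authors had taken out duplicate reads, per the file headers. RPKM of 23858 genes in 6 libraries were deposited in a single table. It also holds the authors' mean normalized signal, log2 fold change with its standard error, test score, p-value and adjusted p-value, per the file headers. That the deposited fold change runs as arsenic trioxide over control follows from the values (98.6% of tested genes had that sign). The authors' fold changes are quoted only where named.

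Log2(RPKM + 1) was tested with limma 3.58.1 in trend mode (R 4.3.3), treatment as the only term, in genes averaging 1 RPKM or more over the libraries (16803 tested, 7055 not), with Benjamini-Hochberg adjustment over all of them. RPKM was used because the file holds no counts. Whole reads were recovered from RPKM with GENCODE 29 exon lengths, within 0.01 reads, for 93.0% of genes from the annotation alone. For the other genes the length was set from the deposited mean. Where reads were still not whole, the nearest length that gave whole reads was taken, so the final 100.0% is partly set by that search. They served for limma-voom with TMM factors as an alternative, which called 5246 genes, and for library totals, for which an exact two-sided permutation test gave p = 0.4 (0.1 is the smallest possible). RPKM is relative to counted reads, so a change in total RNA per cell is not seen. Intervals cover the spread between libraries. The lowest and highest chi-square per degree of freedom between libraries of a group were 5.48 and 13.5, so no library repeats another. The test was also run on simulated data, and the outcome is not reported here.

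The 10 members and the gene lists were chosen with earlier results of these data known. All members are named, with up to 4 called genes of each list with the smallest p-values, and a few named by that rule or used as markers are not reported here. Coordinates are GENCODE 29 on GRCh38, counted from 1. The alternatives were pseudocounts of 0.1 and 5, no filter, a filter at 0.5 RPKM, median-ratio and upper quartile factors, limma-voom, the replicate block, each library left out, and control replicate 1 left out together with arsenic trioxide replicate 3.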

Additional observations from a re-analysis of the deposited data

How the results depend on the processing

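Over 15 alternatives, BCL2, MCL1, BBC3 and PMAIP1 kept their direction and their calls. The fitted size depended on the pseudocount and test, from 0.83 to 1.97 for PMAIP1, 0.50 to 1.85 for BBC3 and -1.15 to -0.60 for BCL2 on the log2 scale. BAX lost its call in 11 alternatives, among them a pseudocount of 0.1 (adjusted p = 0.0512), no filter (0.0559), a filter at 0.5 RPKM (0.0522) and median-ratio factors (0.0504). The median of all genes moved by less than 0.03 under every setting. The count of genes called higher was 2021, and 1202 to 1511 with libraries left out (1302 without arsenic trioxide replicate 1, 1337 without replicate 2, 1202 without the pair that stood apart). The count called lower was 2252, and 1419 to 1906 (1419 without control replicate 2, 1486 without control replicate 3, 1481 without the pair). Members called higher stayed at 3 to 5 and members called lower at 1 to 2. With libraries left out, other family genes called higher were 1 to 2 and lower 0 to 1, outer membrane and turnover genes 0 to 2 and 0 to 1, apoptosome and caspase genes 0 to 1 and 0 to 1, and transcription factors 4 to 7 and 2. Limma-voom called 2 other family genes and 2 apoptosome genes lower, no filter left 0 apoptosome genes lower, and median-ratio and upper quartile factors each left 1 outer membrane gene higher. The cause of these changes was not tested, beyond the fewer samples where libraries were left out.

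No pairing by replicate number was seen (r of deviations -0.09, 0.15 and -0.08, and 1 of 3 libraries correlated best with its own number). The labels do not say what libraries of the same number share. With the replicate number as a block, 1460 genes were called higher and 1616 lower, members called lower were 1 (BCL2L11 at adjusted p = 0.0595, BAX at 0.0575), other family genes called lower 0, outer membrane genes called higher 0, and apoptosome genes called higher 1 and lower 0.

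Differences close to 0 changed sign. BAK1 was -0.0086 with median-ratio factors, -0.0051 without arsenic trioxide replicate 1, -0.052 without arsenic trioxide replicate 3, -0.0048 without control replicate 2 and -0.042 without control replicate 3, in a range of -0.052 to 0.073. BID was -0.0078 with median-ratio factors, -0.12 without arsenic trioxide replicate 3, -0.075 without control replicate 2 and -0.068 without the pair, in a range of -0.12 to 0.071. Reads of the members were fewest for BBC3 in control libraries (48 to 70) and for BCL2A1 (62 to 102 over all libraries).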
